A study of Mus musculus with 16 samples.

Results

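The genes of the semaphorin, plexin and ephrin system were followed in the chromatin accessibility of non-neuroendocrine (non-NE) and neuroendocrine (NE) small cell lung cancer (SCLC) cells. The members are the 53 protein-coding genes of the GENCODE basic annotation of mm10 that encode a neuropilin (Nrp1, Nrp2), a semaphorin, a plexin, an Eph receptor or an ephrin. The rule uses the symbol and no measured value, but the gene system was picked with earlier results of these data known. A listed ATAC-seq peak was given to the gene whose protein-coding start site lay nearest to the peak's centre. This gave 624 member peaks of 80367 listed peaks, and 53 genes of 21840.

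ATAC-seq marks open chromatin through the cuts of the Tn5 transposase. The tumors arose in TKO;Hes1GFP/+ mice, in which Rb, p53 and p130 were deleted in the lung by an adenovirus that carries Cre under the CMV promoter, which is active in many cell types, and in which 1 Hes1 allele reports its activity as GFP. Both groups carry all of these alleles. GFPhigh cells (labelled positive for Hes1-GFP) are the non-NE cells and GFPneg cells (labelled negative) are the NE cells of the same tumors, which were pooled within a mouse and sorted as CD24+ cells without the CD45, CD31 and TER-119 surface markers. The labels give 4 libraries per group, as 4 pairs from 3 mice with 2 of the pairs from 1 mouse, and 2 lanes per library, for 16 runs. The age of the mice is not given in the labels. The deposited tables hold no value per library, so library depth is unknown and no SD or new test between samples can be computed here. The test values of the authors' own comparison were not used, and each value below describes the comparison as a whole. Because the cells were measured in bulk, more cells with an open site and a site more open in each cell cannot be told apart.

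The authors compared the groups and made a pair of lists from the peaks that passed their limits. A peak of the first list, called opened here, was more accessible in GFPhigh cells, and a peak of the second, called closed, was more accessible in GFPneg cells. Peaks that stayed within the authors' limits were not analysed here, so a gene without a listed peak is not shown to be unchanged. The height of a peak is the authors' mean normalized count over all samples, which says how many reads the site gathered and not how far it differed between the groups.

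Semaphorins are secreted or membrane-bound guidance proteins that act through plexins, and the secreted class 3 members mostly need a neuropilin as co-receptor. Eph receptors are receptor tyrosine kinases whose ligands, the ephrins, sit on the neighbouring cell, tethered by a lipid anchor (ephrins A) or by a transmembrane segment (ephrins B), and both partners can signal. These systems steer axons, vessels and the sorting of cells at tissue boundaries, and several of them take part in lung development.

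Of the 53 genes, 49 (92.5%) had at least 1 listed peak, against 66.8% of protein-coding genes, and 4 (Efnb3, Epha6, Sema3g and Sema4g) had none. The member peaks split almost evenly, with 310 opened and 314 closed peaks, so that 49.7% were opened (95% Wilson interval 45.8 to 53.6%) against 50.8% of all listed peaks. Of the members with a peak, 23 (46.9%) had more opened and 23 (46.9%) more closed peaks, and 3 had as many of each. Over all genes with a listed peak, 54.9% had more opened and 37.5% more closed peaks. Peaks of both lists lay at 35 genes, opened peaks alone at 5 and closed peaks alone at 9. These counts were not made over all genes, and a gene with more peaks has more chances to hold both kinds. The members had many peaks each. The median was 7 peaks per member gene and 1 per protein-coding gene, and 20 members (37.7%) had 10 or more, against 10.8% of protein-coding genes. The rule considers protein-coding start sites only. Where start sites of genes of any biotype were considered, 218 of the 624 peaks still had a member as the nearest gene, with 1 of 37 peaks at Epha4, 2 of 37 at Nrp2, 1 of 8 at Efna3, 5 of 13 at Epha2 and none at Efnb2, Ephb1 and Plxnc1. The intervals cover counting error only, and peaks of 1 gene share a locus and are not replicates.

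**Figure D1:**
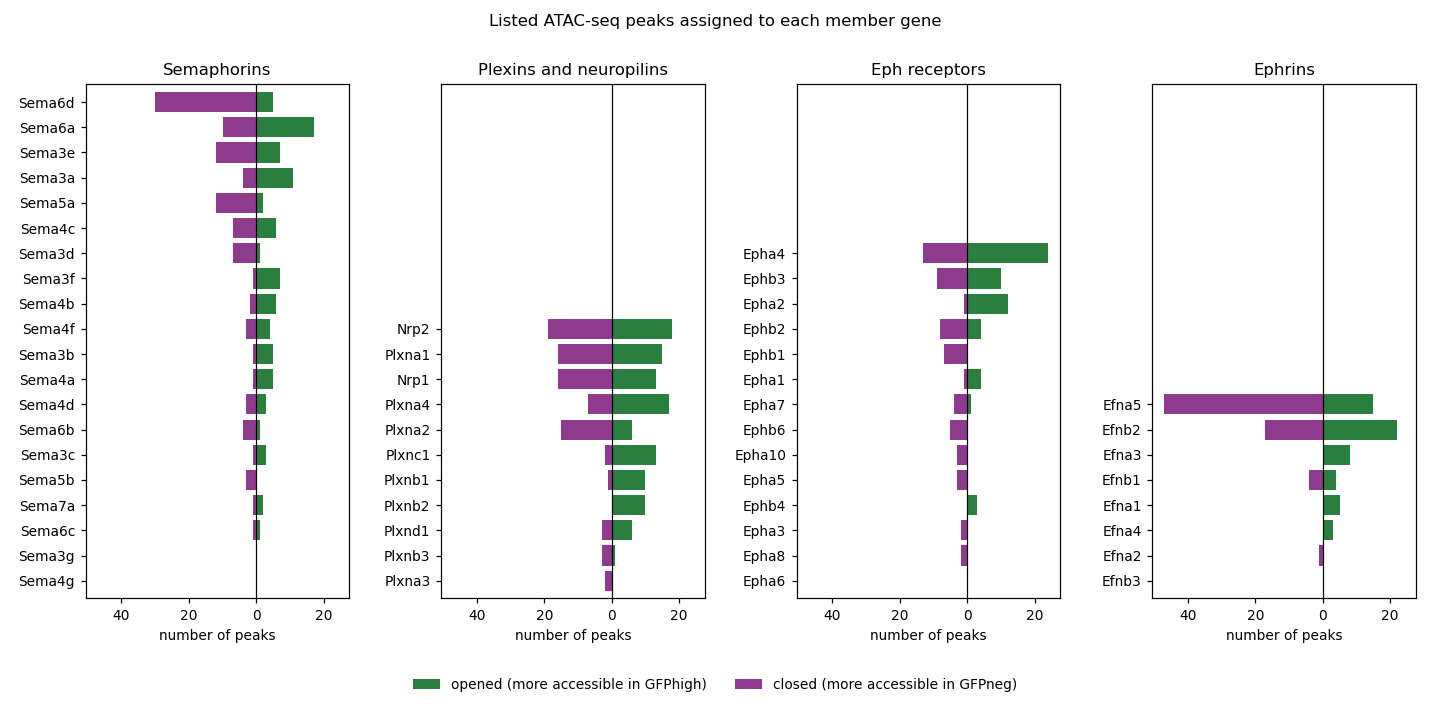
Number of listed peaks (x axis) assigned to each of the 53 genes (y axis), by family, with opened peaks to the right of 0 in green and closed peaks to the left in purple. Efna5 had 15 opened and 47 closed peaks, Sema6d 5 and 30, and Plxnb2 10 and 0.

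The tallest and widest member peaks give the sites that carry the most reads in each list. Central windows of 200 bp, or the whole peak where it is shorter, are printed from the forward strand of GRCm38, the assembly of mm10, in lower case. Capitals mark exact matches, on either strand, to the letters searched for 6 motifs: TEAD (CATTCC), AP-1 (TGANTCA), FOX (TGTTTAC), RBPJ (TGGGAA), NKX2 (CACTTGA) and an NFI half-site (TGCCAA). Among the opened peaks are shown the Plxnb2 promoter, with a mean normalized count of 542 over chr15:89180583-89181246, a site in an intron of Plxna2 (477, chr1:194651775-194652522), a site 58.3 kb downstream of the Efnb2 start site and past the end of the gene (453, chr8:8602584-8603378) and the widest opened peak, of 1235 bp, which lies 51.4 kb upstream of Plxna1 inside the gene Chchd6 (chr6:89413368-89414602).
Plxnb2 promoter (chr15:89180815-89181014): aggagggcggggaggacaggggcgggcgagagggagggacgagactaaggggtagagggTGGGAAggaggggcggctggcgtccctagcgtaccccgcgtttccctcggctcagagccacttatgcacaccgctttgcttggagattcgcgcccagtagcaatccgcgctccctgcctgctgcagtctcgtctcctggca
Plxna2 intron (chr1:194652049-194652248): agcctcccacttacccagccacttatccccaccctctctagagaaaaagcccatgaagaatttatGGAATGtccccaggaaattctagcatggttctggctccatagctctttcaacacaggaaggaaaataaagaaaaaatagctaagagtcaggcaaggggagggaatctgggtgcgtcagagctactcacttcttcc
Efnb2 downstream, opened (chr8:8602881-8603080): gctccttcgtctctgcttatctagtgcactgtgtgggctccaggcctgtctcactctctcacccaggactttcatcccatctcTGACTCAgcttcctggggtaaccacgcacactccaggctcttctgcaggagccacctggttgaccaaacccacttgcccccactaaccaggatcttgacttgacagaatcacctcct
Plxna1 upstream (chr6:89413885-89414084): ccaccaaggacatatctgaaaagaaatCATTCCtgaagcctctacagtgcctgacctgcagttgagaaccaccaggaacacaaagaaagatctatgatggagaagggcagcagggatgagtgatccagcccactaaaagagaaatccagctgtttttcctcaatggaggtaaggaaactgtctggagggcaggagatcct

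Of the other tall opened peaks, that of the Sema3f promoter reached 720, the highest count of all member peaks (chr9:107709569-107710548), and that of the Sema4c promoter reached 458 (chr1:36557450-36558665). Their central windows reach into untranslated exons and are not printed. The Plxna2 and Plxna1 windows held the TEAD letters, the Plxnb2 window the RBPJ letters and the Efnb2 window those of AP-1.

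The tallest and also the widest closed peak lay 162 kb upstream of Efna5 (count 471, width 784 bp, chr17:63042777-63043560). The next was the Sema3e promoter, with a count of 438 (chr5:14025143-14025729), whose window is untranslated sequence and is not printed. Closed peaks 28.8 kb upstream of Ephb6 (403, chr6:41576466-41576982), 172 kb downstream of the Efnb2 start site (270, chr8:8488568-8489303) and 86.1 kb upstream of Nrp1 (190, chr8:128272872-128273506) followed, when 1 peak per gene and list is taken. Further closed peaks of Sema3e (361) and Efna5 (224) had counts in the same range. The tallest closed promoter peaks of Efna5 (136, chr17:62880827-62881162) and Ephb6 (83.4, chr6:41604661-41604827) are shown last. The centre of this Efna5 peak lies 149 bp past the start site, so the printed window is sequence from inside the gene.
Efna5 upstream (chr17:63043069-63043268): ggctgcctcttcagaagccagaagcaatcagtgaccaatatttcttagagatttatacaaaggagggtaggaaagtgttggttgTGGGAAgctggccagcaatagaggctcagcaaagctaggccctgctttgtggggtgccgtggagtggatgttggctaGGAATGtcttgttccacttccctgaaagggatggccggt
Ephb6 upstream (chr6:41576624-41576823): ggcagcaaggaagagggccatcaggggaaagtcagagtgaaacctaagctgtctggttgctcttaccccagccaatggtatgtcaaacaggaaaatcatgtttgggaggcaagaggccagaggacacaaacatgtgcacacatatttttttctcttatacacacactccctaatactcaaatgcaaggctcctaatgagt
Efnb2 downstream, closed (chr8:8488836-8489035): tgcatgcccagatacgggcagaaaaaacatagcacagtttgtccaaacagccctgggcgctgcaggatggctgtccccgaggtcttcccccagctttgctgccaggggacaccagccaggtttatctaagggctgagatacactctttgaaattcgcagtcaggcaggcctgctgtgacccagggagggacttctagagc
Nrp1 upstream (chr8:128273089-128273288): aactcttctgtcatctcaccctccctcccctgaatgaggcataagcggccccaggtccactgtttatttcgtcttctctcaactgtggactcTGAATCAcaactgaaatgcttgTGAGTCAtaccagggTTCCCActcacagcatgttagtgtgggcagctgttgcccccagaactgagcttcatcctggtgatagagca
Efna5 promoter (chr17:62880895-62881094): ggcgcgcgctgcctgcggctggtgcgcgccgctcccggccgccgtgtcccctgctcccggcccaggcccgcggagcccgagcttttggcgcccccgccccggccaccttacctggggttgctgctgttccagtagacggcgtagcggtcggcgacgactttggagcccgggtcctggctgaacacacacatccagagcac
Ephb6 promoter (chr6:41604661-41604827): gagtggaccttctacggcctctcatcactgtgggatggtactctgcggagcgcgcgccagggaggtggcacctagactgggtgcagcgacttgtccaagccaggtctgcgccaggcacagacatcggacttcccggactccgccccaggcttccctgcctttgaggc

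The Efna5 upstream window held both the TEAD and the RBPJ letters, and the Nrp1 window those of AP-1 and RBPJ. In the Ephb6 windows, the closed Efnb2 window and the Efna5 promoter window none of the 6 searches matched. A match is a description of the letters and not a mapped binding site.

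Peaks at promoters, meaning peaks whose centre lay within 1 kb of a start site of the gene, were mostly opened. There were 51, of which 38 were opened and 13 closed, so that 74.5% (interval 61.1 to 84.5%) were opened against 74.3% of all promoter peaks. An opened promoter peak lay at 21 members (39.6%), against 26.6% of protein-coding genes, and a closed one at 7 members (13.2%), against 8.45%. These shares count genes without any listed peak, which were 4 of the 53 members and 7259 of the 21840 protein-coding genes. No member had both an opened and a closed promoter peak, but how many of all genes had both was not counted. Away from promoters, 272 of 573 member peaks were opened, which is 47.5% against 47.3% of all other peaks.

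**Figure D2:**
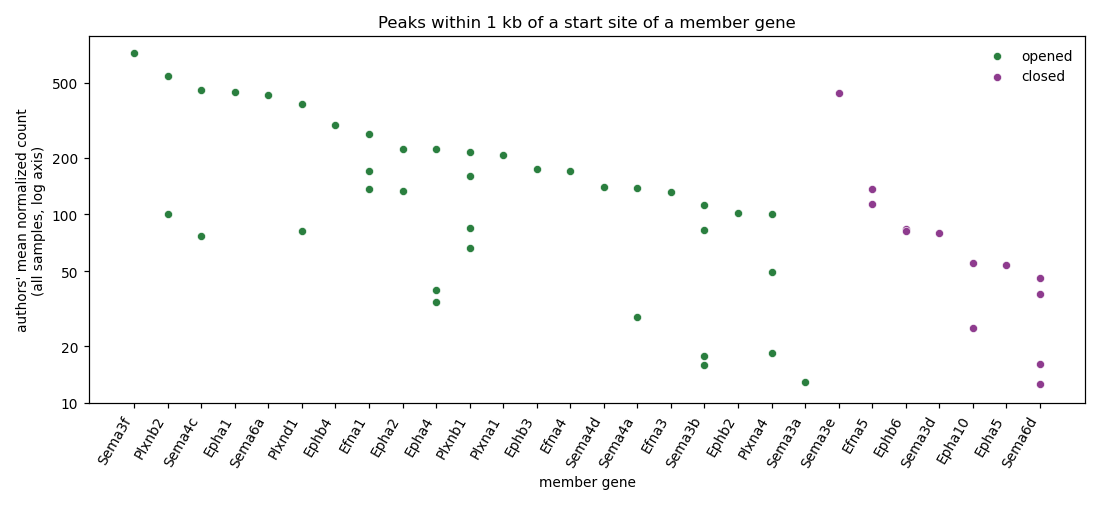
Authors' mean normalized count (y axis, log scale) of each of the 51 promoter peaks, by member gene (x axis), with opened peaks in green and closed peaks in purple. The opened peaks ran from 12.9 at Sema3a to 720 at Sema3f, and the closed peaks from 12.5 at Sema6d to 438 at Sema3e.

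Among the secreted class 3 semaphorins, 34 of 60 peaks were opened (56.7%, interval 44.1 to 68.4%), and the genes went different ways. Sema3f, the classic ligand of neuropilin 2, had 7 opened and 1 closed peak. Sema3b, which lies beside it on chromosome 9, had 5 opened and 1 closed peak, and 4 of its opened peaks were at start sites, with counts of 15.8, 17.6, 82.8 and 112. In human, this gene pair lies in a region often deleted in lung cancer. Over both genes, 12 of 14 peaks were opened. Sema3a, the classic ligand of neuropilin 1, had 11 opened and 4 closed peaks, and its 1 promoter peak, at 12.9, lay near the second of 2 protein-coding start sites of the basic annotation. A further opened peak, at 28.4 (chr5:13125330-13125768), spans the annotated 5′ end of the gene, where the basic annotation has no protein-coding start site, and is not counted among the promoter peaks.

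Sema3e and Sema3d went the other way. Sema3e, which binds plexin D1 directly, had 7 opened and 12 closed peaks. Of the closed peaks, 7 lay in an unbroken row that began with the promoter peak and ran for 50.9 kb into the gene, where a peak at 15.1 kb had a count of 361. Its upstream opened peaks lay 32.1 kb or more from the start site, at counts of up to 172. Sema3d had 1 opened and 7 closed peaks, with a closed promoter peak at 79.4. Sema3c had 3 opened peaks and 1 closed peak.

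The membrane-bound semaphorins of classes 4 to 7 had 52 opened peaks of 129 (40.3%, interval 32.2 to 48.9%). Sema4a, known from immune cells, had 5 opened and 1 closed peak, and Sema4b had 6 and 2. Sema4c, the ligand of plexin B2, had 6 opened and 7 closed peaks, and both of its promoter peaks were opened, at 458 and 77. The start site of another gene, D430040D24Rik, also lies within 1 kb of the taller of them. Of its 13 peaks, 9 lay inside the neighbouring gene Fam178b. Sema4d, the ligand of plexin B1, had 3 peaks in each list and an opened promoter peak at 140. Sema4f had 4 opened and 3 closed peaks.

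Sema6d, which acts through plexin A1 in the developing heart, had 5 opened and 30 closed peaks. In genome order, 25 closed peaks followed each other over 757 kb without an opened one between them, which included 4 promoter peaks at counts of 12.5 to 45.7. Of its opened peaks, 4 lay downstream of the gene. Sema5a, a transmembrane semaphorin with thrombospondin repeats, had 2 opened and 12 closed peaks, and its 12 closed peaks formed 1 row of 281 kb. Sema6a, a ligand of plexins A2 and A4, had 17 opened and 10 closed peaks, with an opened promoter peak at 429. Sema6b had 1 opened and 4 closed peaks, Sema5b had 3 closed peaks, Sema7a had 2 opened and 1 closed, and Sema6c had 1 of each.

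**Figure D3:**
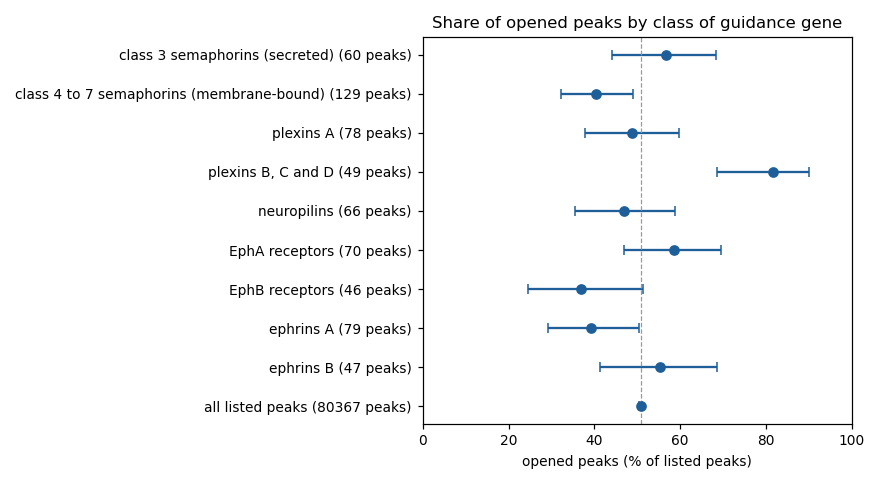
Share of opened peaks among the listed peaks (x axis, %) for each class of guidance gene (y axis), with 95% Wilson intervals, which cover counting error only. The dashed line is the share over all listed peaks, 50.8%, and plexins B, C and D lie to its right at 81.6%.

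Plexins B, C and D had 40 opened peaks of 49 (81.6%, interval 68.6 to 90%). Plxnb2 had 10 opened peaks and no closed one, all within 20 kb, with counts of 8.82 to 542. Plxnb1 had 10 opened peaks in a row over 29.6 kb, which included 4 at its promoter at 66 to 213, and 1 closed peak 30.1 kb from its start site. Plxnd1, the receptor of semaphorin 3E, had 6 opened and 3 closed peaks, with opened promoter peaks at 386 and 81.8. Plxnc1, the receptor of semaphorin 7A, had 13 opened and 2 closed peaks but none at its promoter. Of its opened peaks, 10 lay upstream of the gene in a row of 127 kb. Plxnb3 was the exception in this class, with 1 opened and 3 closed peaks.

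Plexins A, which pair with neuropilins, had 38 opened peaks of 78 (48.7%, interval 37.9 to 59.6%). Plxna4 had 17 opened and 7 closed peaks. Its 3 promoter peaks were opened, at 18.4, 49.6 and 100, and belonged to a row of 8 opened peaks that ran upstream over 237 kb. Plxna1 had 15 opened and 16 closed peaks and an opened promoter peak at 206. Of its opened peaks, 9 lay in Chchd6, while 11 of its closed peaks lay downstream of the gene. Plxna2 had 6 opened and 15 closed peaks and none at its promoter. The tallest of its peaks was the opened intronic site at 477, and the tallest closed peak reached 177. Plxna3 had 2 closed peaks.

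The neuropilins had 31 opened peaks of 66 (47%, interval 35.4 to 58.8%), none of them at a promoter. Nrp2 had 18 opened and 19 closed peaks, and both lists lay on both sides of its start site in unequal numbers. Of the opened peaks, 10 lay inside the upstream gene Pard3b, where the tallest reached 429, and 4 lay between that gene and Nrp2, while 2 closed peaks, at 36.3 and 58.7, also lay inside Pard3b. A row of 10 opened peaks over 241 kb ended 3.19 kb into Nrp2, and after it 9 closed peaks lay within the gene, at counts of 7.35 to 134, and 8 downstream of it, beside 2 opened peaks 131 and 156 kb from the start site. At Nrp1, with 13 opened and 16 closed peaks, the lists switched within the gene. The 6 peaks from 11.7 to 81.3 kb past the start site were closed, at counts of 17.4 to 176, and the next 9, from 87.6 to 132 kb over a stretch of 45.3 kb, were opened, at 6.34 to 120.

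EphA receptors had 41 opened peaks of 70 (58.6%, interval 46.9 to 69.4%). Most of the opened peaks belonged to Epha4 and Epha2. Epha2, a receptor of epithelial cells, had 12 opened and 1 closed peak. A row of 11 opened peaks covered 37.7 kb from 28.2 kb upstream into the gene and included both promoter peaks, at 133 and 223. The closed peak, at 110, lay 10.7 kb into the gene between 2 opened ones. Epha4, which binds ephrins of both classes, had 24 opened and 13 closed peaks. Of its opened peaks, 3 were promoter peaks at 34.2, 39.8 and 222, and 11 others lay within the gene, against 1 closed peak there. Of its closed peaks, 11 lay downstream, at 152 to 874 kb from the start site. The start site of another gene, Gm28386, is also within 1 kb of the Epha4 promoter peaks.

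Epha1 had 4 opened peaks, with a promoter peak at 444, and 1 closed peak. Listed peaks of 5 other EphA receptors were mostly closed. Epha10, whose kinase domain is thought to lack activity, had 3 closed peaks, 2 of them at the promoter at 24.8 and 55.2. Epha5, a receptor of the nervous system, had 3 closed peaks, with 1 at the promoter at 53.8. Epha3 and Epha8 had 2 closed peaks each, and Epha7 had 1 opened and 4 closed peaks. Epha6 had none.

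EphB receptors had 17 opened peaks of 46 (37%, interval 24.5 to 51.4%). Ephb6, also held to be without kinase activity, had 5 closed peaks and no opened one, at counts of 26.9 to 403. Ephb1 had 7 closed peaks and no opened one. They spanned 174 kb, with 6 in the gene at 6.15 to 24.7 and 1 upstream at 148. Ephb2 had 4 opened and 8 closed peaks, and the promoter peak was opened, at 102. Ephb3 had 10 opened and 9 closed peaks that were interspersed along the locus, with an opened promoter peak at 174. Ephb4, the receptor of ephrin B2 that marks veins, had 3 opened peaks, with 1 at the promoter at 297.

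Ephrins A had 31 opened peaks of 79 (39.2%, interval 29.2 to 50.3%), and this share rested on 1 gene. Efna5, a graded cue in axon mapping, had 62 peaks, more than any other member, of which 15 were opened and 47 closed. Both of its promoter peaks were closed, at 113 and 136, and belonged to a row of 15 closed peaks over 233 kb that took in the upstream site printed above. Its peaks reached as far as 1930 kb from the start site. Only 8 of the 62 lay within 100 kb of it, with opened minus closed peaks at -4. Where start sites of any biotype were considered, 22 peaks still had Efna5 as the nearest gene. Without Efna5, 65.6% of the peaks of all ephrins were opened, against 45.2% with it. Efna1, Efna3 and Efna4, which are neighbours on chromosome 3 within 66.3 kb, had 5, 8 and 3 peaks, and all 16 were opened. Promoter peaks of this cluster reached 266 at Efna1, 132 at Efna3 and 169 at Efna4, where another gene, 4731419I09Rik, starts within 1 kb. Efna2 had 1 closed peak.

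Ephrins B had 26 opened peaks of 47 (55.3%, interval 41.2 to 68.6%). Efnb2, the ligand that marks arteries, had 22 opened and 17 closed peaks, all of them downstream of the gene and up to 1697 kb from its start site. Peaks of the lists came in blocks there, with 11 opened peaks in a row over 219 kb. Distance alone gave these sites to Efnb2, and the gene on which they act was not measured. Efnb1 had 4 peaks in each list, and Efnb3 had none.

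**Figure D4:**
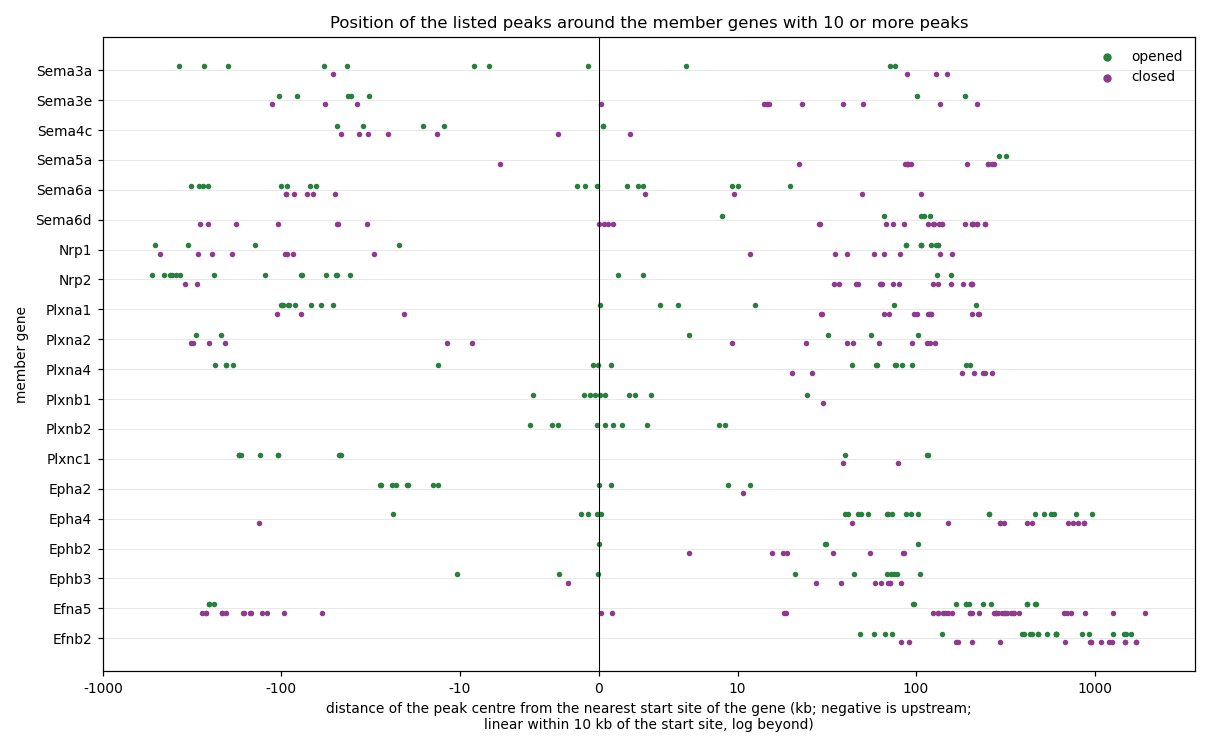
Distance of each peak's centre from the nearest start site of its gene (x axis, kb, linear within 10 kb of the start site and log beyond, negative upstream) for the 20 members with 10 or more peaks (y axis), with opened peaks in green and closed peaks in purple. At Nrp2 most opened peaks lie upstream and most closed peaks lie past the start site, and all 39 Efnb2 peaks lie downstream.

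Ligands and receptors that are known to bind each other were set side by side at their promoters, by the tallest promoter peak of each. Opened promoter peaks were present at both partners for Efna1 (266) and Epha2 (223), for Sema4c (458) and Plxnb2 (542), for Sema4d (140) and Plxnb1 (213), and for Sema6a (429) and Plxna4 (100). Closed promoter peaks were present at both partners for Efna5 (136) and Epha5 (53.8). The partners were in different lists for Efna5 and Epha4 (opened, 222), for Sema3e (closed, 438) and Plxnd1 (opened, 386), and for Sema6d (closed, 45.7) and Plxna1 (opened, 206). A listed promoter peak, opened in each case, was present at only 1 partner for Sema3f with Nrp2, for Sema3a with Nrp1, for Sema6a with Plxna2 and for Efnb2 with Ephb4, where it was the receptor. Neither Sema7a nor Plxnc1 had one. The pairs come from background knowledge, were set together after the values were seen and are not a full list. Among ephrins A and EphA receptors, combinations left out went both ways. Efna1 and Epha5 were in different lists, as were Efna5 and Epha2, while Efna1 and Epha4 were both opened. No test was made of the pairs, and opened promoter peaks were the more frequent kind among members and among all genes alike.

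The position of a peak went with its list. Among member peaks, the opened share was 69.4% (interval 59 to 78.2%) at 1 to 10 kb from the start site, 50.8% at 10 to 50 kb, 40.5% at 50 to 100 kb and 41.3% (interval 35.3 to 47.5%) beyond 100 kb. Over all listed peaks the shares in the same bins were 58.8%, 52.3%, 43.6% and 32.5%. Opened member peaks lay at a median of 47.2 kb from the start site and closed ones at 89.5 kb, against 17.5 and 42.4 kb over all listed peaks, so member peaks were the farther ones in both lists. Introns of the member genes held 237 peaks, of which 44.7% were opened, and the regions downstream held 149, of which 40.9% were opened. Opened member peaks were taller and wider than closed ones, with a median count of 40.3 against 24.8 and a median width of 282 against 248 bp, close to the values over all listed peaks of 40.7 and 25.8, and of 300 and 248 bp. A count over 100 was reached by 25.5% of opened and 8.92% of closed member peaks, and by 25.5% and 9.2% over all listed peaks.

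The searched letters were spread over the member peaks much as over all peaks of the same list. The central windows of opened member peaks held the TEAD letters in 19.4% (interval 15.3 to 24.1%), against 18.2% of all opened peaks, and those of closed member peaks in 8.28%, against 8.77%. Letters of AP-1 were found in 10.6% of opened and 23.9% (interval 19.5 to 28.9%) of closed member peaks, against 10.6% and 26.4%. RBPJ, the DNA-binding partner of Notch, had matches in 23.2% of opened and 14.3% of closed member peaks, against 20.7% and 16.3%. The NFI half-site matched in 20% and 12.1%, against 18% and 13.4%. For FOX the shares were 5.48% and 7.32%, against 6.84% and 9.71%, and for NKX2 they were 7.74% and 5.41%, against 6.68% and 5.04%. Each interval of the members holds the share of all peaks of that list.

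By gene, the TEAD letters were found in 5 of 18 opened and 3 of 19 closed peaks of Nrp2. At Plxna1 they were found in 5 of 15 opened and 2 of 16 closed peaks, and at Plxnb2 in 4 of 10 peaks, all opened. Efna5 had them in 3 of 15 opened and 6 of 47 closed peaks. Over all genes, 18.2% of opened and 8.77% of closed peaks held these letters. AP-1 letters were found in 14 of 47 closed peaks of Efna5, against 26.4% of all closed peaks. At Epha2 they were found in 5 of 12 opened peaks, against 10.6% of all opened peaks. RBPJ letters were found in 9 of 30 closed peaks of Sema6d and 7 of 17 opened peaks of Sema6a, against 16.3% of all closed and 20.7% of all opened peaks. These genes were singled out after their counts were seen, and genes with more peaks have more chances of a match.

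**Figure D5:**
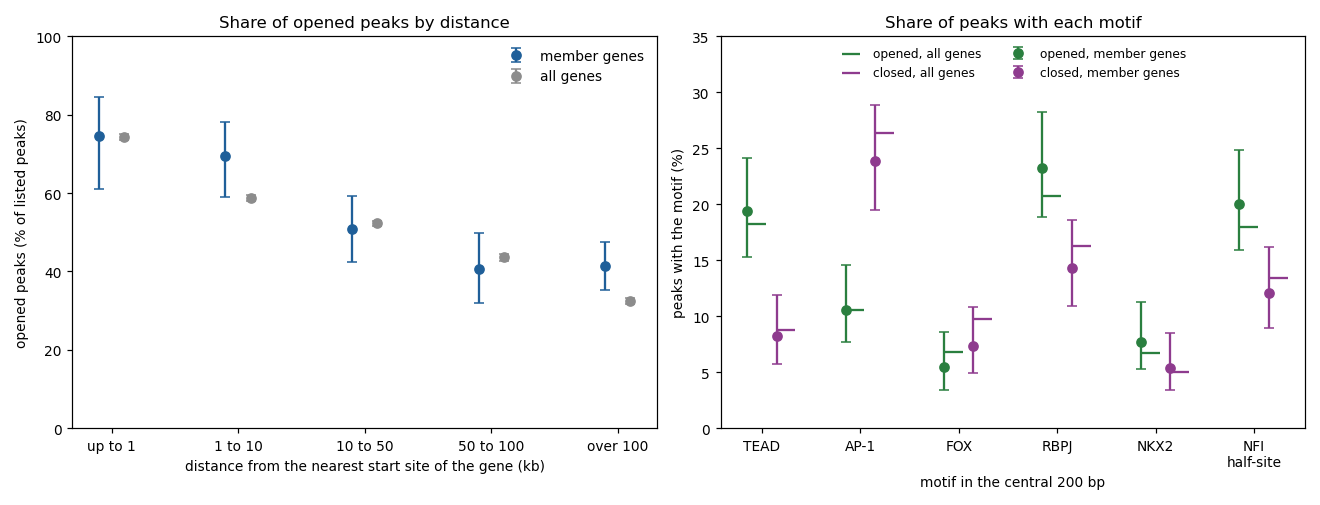
Left, share of opened peaks (y axis, %) by distance from the nearest start site (x axis, kb) for member genes in blue and for all genes in grey. Right, share of opened (green) and closed (purple) member peaks with each motif's letters in the central 200 bp (y axis, %), with a dash for all peaks of that list. Error bars are 95% Wilson intervals, and at 1 to 10 kb the member share of 69.4% lies above that of all genes, 58.8%.

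The co-receptors and downstream partners of these receptors, a list of 33 genes that includes collapsin response mediators, exchange factors, adaptors and a shedding protease, had peaks in every case, against 66.8% of protein-coding genes. Of their 402 peaks, 198 were opened (49.3%, interval 44.4 to 54.1%), against 50.8% of all listed peaks. An opened promoter peak lay at 21 of the genes (63.6%) and a closed one at 9 (27.3%), against 26.6% and 8.45% of protein-coding genes. The latter shares count genes without any listed peak. More opened peaks were found at 18 (54.5%) and more closed peaks at 12 (36.4%), against 54.9% and 37.5% of all genes with a listed peak. Of the collapsin response mediators, Dpysl2 had 8 opened peaks and no closed one, whereas Crmp1 had 1 opened and 7 closed peaks, of which 3 were at the promoter, and Dpysl3 had 1 and 5. Mical2, a flavoprotein that acts on actin, had 21 opened and 4 closed peaks, and its relative Mical3 had 1 and 17. Fyn, a kinase that acts below plexins A and ephrins, had 2 opened and 27 closed peaks, and Grip1, a scaffold that binds ephrins B, had 6 and 32. Arhgef12, an exchange factor bound by plexins B, had 8 opened peaks and no closed one, and its relative Arhgef11 had 1 opened peak. Met, a receptor kinase that associates with plexins B, had 16 opened and 2 closed peaks. These genes were singled out after their counts were seen.

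The labelled populations were checked on marker genes. Hes1, the reporter gene, had 26 opened and 11 closed peaks, with 1 opened promoter peak. Of 7 neuroendocrine markers, 6 had a closed promoter peak, none had an opened one, and 1 (Syp) had no listed peak. Of their 40 peaks, 11 were opened and 29 closed, and Chga went the other way by number of peaks, with 8 opened and 6 closed. All 4 club cell markers had an opened promoter peak, and 27 of their 30 peaks were opened. Over all protein-coding genes, 26.6% had an opened and 8.45% a closed promoter peak. Genes of cells that the sort should remove had listed peaks too, with 15 opened and 43 closed peaks at 6 endothelial genes and 12 opened and 9 closed at the leukocyte genes, of which Cd53 and Itgam had none. The 6 fibroblast genes had 10 opened and 13 closed peaks, and 2 of them (Pdgfrb and Lum) had none. Of the endothelial peaks, 2 opened and 23 closed ones belonged to Cdh5 alone. Over all listed peaks, 50.8% were opened. A listed peak lay at 6 endothelial, 3 leukocyte and 4 fibroblast genes, while 66.8% of all protein-coding genes had one. Semaphorins, neuropilins and ephrins are also used by such cells, and the part of other cells in the member peaks was not tested.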

How the data were processed

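The authors aligned the reads to mm10 with Bowtie2 2.3.4.1, removed duplicates with Samtools, called peaks with MACS2, counted reads per merged peak with bedtools and compared the groups with DESeq2 1.28.1 (tools and versions from the submitters' processing notes and the study's methods). The deposited signal used here is the authors' mean normalized count of a peak over all samples. The 5 other deposited columns (log2 fold change, its error, the Wald statistic, p-value and adjusted p-value) are the authors' own comparison and were not used. Whether lanes or the pairs of 1 mouse were summed is not given in the sources used here.

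Peaks were assigned to start sites of protein-coding transcripts of GENCODE M21 basic, in Python 3.11.15 with pandas 2.3.3, numpy 2.4.6, scipy 1.17.1 and pysam 0.24.0, and figures were drawn with matplotlib 3.10.9. Positions are 1-based. Promoter, row and motif counts are descriptions. No test between samples could be made.

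The member genes, lists and motifs were chosen with earlier results of these data known. Named with values were genes with 10 or more peaks, a promoter peak, 5 or more peaks all in 1 list, or none. Other members are given to account for every gene. Sequences are from the 5 tallest peaks (at most 1 per gene) and the widest peak of each list and the 3 tallest promoter peaks. Windows on chromosome 18 and in untranslated exons are not printed. Alternatives are given in the closing section. Of the leukocyte list, 1 gene is not reported here.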

Additional observations from a re-analysis of the deposited data

How the results depend on the processing

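No paired analysis was possible because the deposited lists hold no value per library, so no replicate could be left out either, and stricter limits on the authors' comparison were not tried. The share of opened peaks among the member peaks (49.7%) became 55.2% with peaks at most 100 kb from the start site (55.7% over all listed peaks), 55% with the nearest start site of a gene of any biotype (57.7% over all), which kept 218 of 624 member peaks, 54.2% with a mean normalized count of at least 20 (55% over all) and 63.1% with at least 50 (64.4% over all). It ran from 46.3% to 52.5% under the 6 other alternatives, of which leaving out chromosome 11 could change nothing because no member peak lies there. Under the biotype and both count alternatives, the semaphorins (45.5%) became 55.2%, 54.6% and 65.6%. Plexins and neuropilins (56.5%) became 66.1% with any biotype and 68.1% with a count of at least 50. Ephrins (45.2%) became 65.8% within 100 kb, 62.7% within the gene body and 10 kb on either side, 56.8% with a count of at least 50 and 65.6% without Efna5. Closed promoter peaks (13) became 22 within 3 kb and 6 within 500 bp, and opened ones (38) became 57 and 30. In the whole peak, where longer sequence was searched, TEAD letters were found in 25.2% of opened and 14% of closed member peaks (25.4% and 12% over all listed peaks), FOX in 8.71% of opened (9.5%), RBPJ in 29% and 18.8% (30.6% and 21.5%), and the NFI half-site in 27.4% and 17.2% (24.7% and 17.1%). The members thus lay on the other side of all peaks than in the central windows for TEAD in both lists, for RBPJ in opened peaks and for the NFI half-site in closed peaks.

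Of 35 named genes, 6 changed the list that held most of their peaks. The difference of opened minus closed peaks became -2 for Efnb2 with a count of at least 20, 2 for Nrp1 within the gene body and 10 kb or with any biotype, 2 for Nrp2 with any biotype and 1 with a count of at least 50, -1 for Plxna4 within the gene body and 10 kb, and 3 and 1 for Sema4c within the gene body and 10 kb and with any biotype. For Plxna1 it became 6 within 100 kb, 2 within the gene body and 10 kb, 4 with any biotype, 1 with a count of at least 50 and 1 after merging peaks within 100 bp. Of the others, 4 reached a tie: Plxnd1 within the gene body and 10 kb, Sema3b without peaks near start sites, Sema3e with any biotype, and Ephb3 within 100 kb or without peaks near start sites. Sema4d, tied at first, became -1 with a count of at least 20 or without peaks near start sites, and 1 with a count of at least 50. Some genes kept their list with a much smaller difference. Within 100 kb the difference went from -32 to -4 for Efna5, from -25 to -10 for Sema6d and from 11 to 2 for Plxnc1. For Epha4 it rose from 11 to 14. With any biotype it went from 11 to 3 for Epha2. The cause was not tested.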
